A study of Mus musculus with 10 samples.

Results

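NF-kB is a family of transcription factors that carry signals from antigen receptors, Toll-like receptors and receptors of the TNF family to the genes of B cell survival and activation. In resting cells the factors are held back by inhibitor proteins of the IkB family, which a kinase complex marks for destruction when a signal arrives. Several of the genes that NF-kB switches on encode its own inhibitors, so transcripts of these feedback genes are widely used as a readout of pathway activity. The genes described here are 33 components and feedback genes of this pathway, taken by symbol from a list whose rule uses no measured value. All 33 were found among the 14450 genes of the expression table.

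Mature B cells were sorted from bone marrow of Chat-GFP mice at steady state, in which green fluorescence reports use of Chat, the gene of the acetylcholine-making enzyme. RNA was sequenced from 5 libraries of Chat+ mature B cells and 5 libraries of Chat- mature B cells, and all 10 carried the reporter and had no treatment. Neither the age of the mice nor whether each library had its own animal is stated in the labels, so p-values cover only spread between libraries. Levels are given in CPM, counts per 1000000 counts over the listed genes, and differences as log2 fold changes of Chat+ over Chat-.

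Depth estimated from the low values was 21530000 to 30060000 reads per library. Chat itself averaged 70.6 ± 28.9 CPM in Chat+ cells and 7.5 ± 7.25 CPM in Chat- (SD, n = 5 each) with no overlap, which checks the sort and the labels, although its log2 fold change of 3.64 ± 0.59 (SE) had a limma adjusted p of 0.087. Of the 11 B cell markers, 0 were at 0 in any library, and they summed to 18800 to 21430 CPM in Chat+ cells and 19820 to 20080 CPM in Chat-. The library Chat- replicate 4 stood apart, with 11.9% of its CPM from mitochondrial transcripts against 2.27% to 3.85% in the other 9 libraries, and 1213 of its genes were at the table's minimum, against 62 to 682 elsewhere. Summary results and those of many genes below are therefore also given without it.

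Across the pathway, transcript levels in Chat+ cells lay close to those in Chat- cells. With limma and Benjamini-Hochberg adjustment over all genes, 0 of the 33 genes passed the threshold of 0.05 (lowest adjusted p = 0.999), where 0.00692% of all genes did, a single gene. At an unadjusted p under 0.05 there was 1 gene, Cd83, where 4.51% of all genes reached that level. Cd83 was lower in Chat+, as were 1.01% of all genes at that level, while 3.49% were higher. Limma-voom on estimated reads also gave 0 adjusted and 1 unadjusted call. With library quality weights 6 of the 33 genes had an unadjusted p under 0.05 (Nfkbia, Nfkbid, Birc3, Tnfaip3, Tnip1 and Cd83), and with the replicate block and Chat- replicate 4 left out 7 did (Nfkbia, Nfkbid, Nfkb2, Relb, Traf2, Tnip1 and Cd83). All of these had values below 0, and the lowest limma adjusted p of the 33 genes in those fits was 0.125 and 0.173. Over all genes, 105 and 82 passed the adjusted threshold in those fits. The share of all genes with an unadjusted p under 0.05 was not computed for them, so the 6 and 7 have no background to be read against. The groups overlapped for all 33 genes, while 1.43% of all genes showed no overlap.

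For 28 of the 33 genes (84.9%) the 95% confidence interval lay within 1.5-fold of no difference in both directions, against 44.1% of all genes and 62.8% of the 10147 genes with a mean of at least 5 CPM. For all 33 it lay within 2-fold, against 64.4% of all genes. The 5 genes with intervals beyond 1.5-fold were Nfkbid, Tank, Tnip2, Otulin and Ebi3. Without Chat- replicate 4 these were 2, Tnip2 and Ebi3, and 31 of the 33 genes lay within 1.5-fold, against 49.6% of all genes. Each of the 33 genes averaged above 5 CPM in both groups, and all but Ebi3 averaged at least 23.8 CPM. The 62.8% also counts genes that average less than that, and no share was computed at the level of the 33 genes. The 64.4% and 49.6% are over genes of all levels, and no share over genes of at least 5 CPM was computed for them. The median log2 fold change of the 33 genes was -0.04, beside 0.04 over all genes, and the 33 values ran from -0.29 for Nfkbid to 0.32 for Ebi3. Of the 33 genes, 20 had a value below 0, where 43.0% of all genes did. With TMM scaling or median-of-ratios scaling 25 did, where 50.1% and 51.1% of all genes did.

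**Figure D1:**
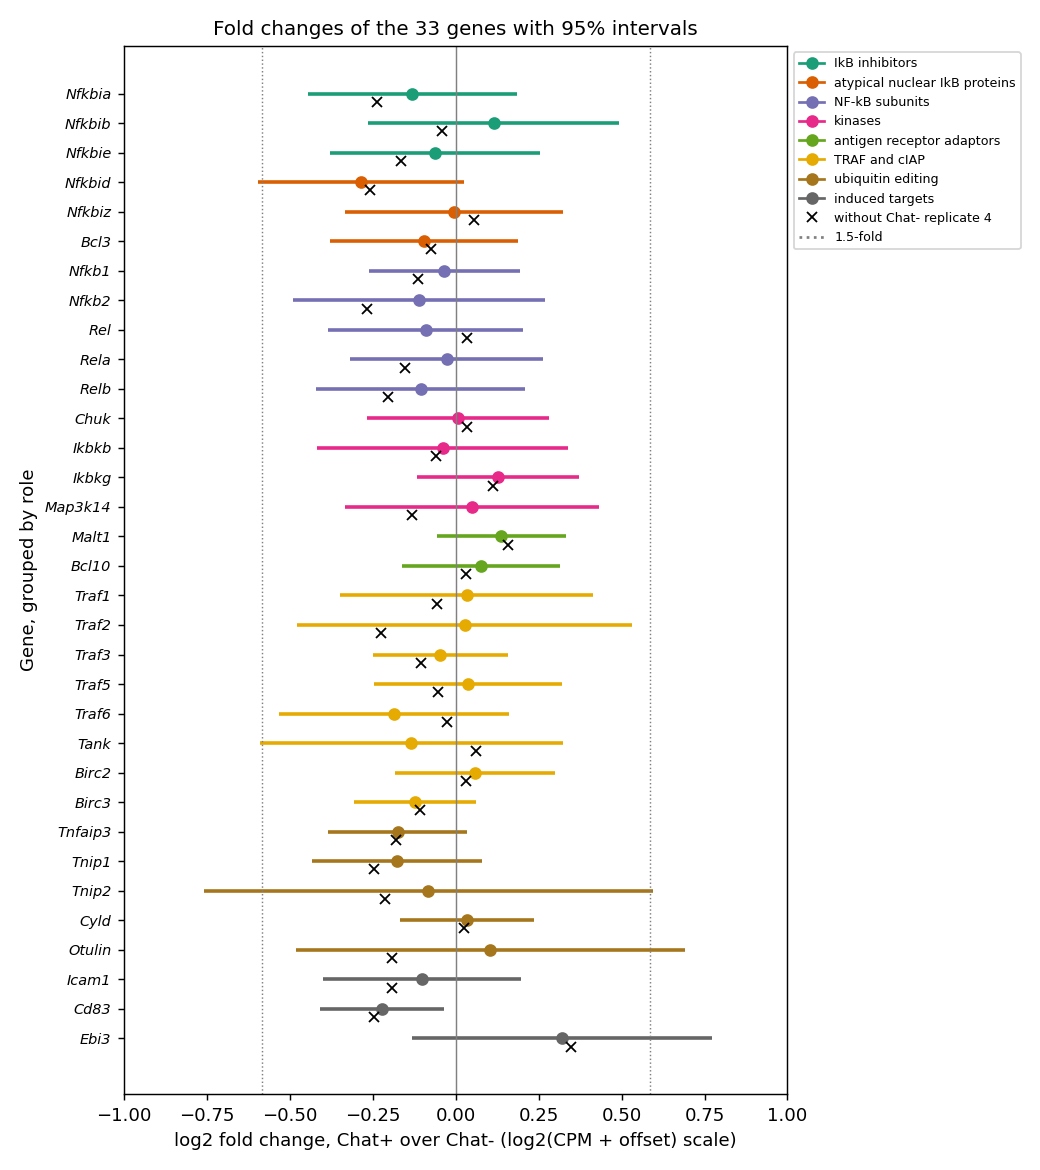
Log2 fold changes of Chat+ over Chat- for the 33 genes grouped by role, with dots for the fit on 10 libraries, bars for its 95% confidence intervals, crosses for the fit without Chat- replicate 4 and dotted lines at 1.5-fold. The intervals of 28 genes lie between the dotted lines, and that of Cd83 is the 1 interval that does not reach 0.

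Feedback by NF-kB on its own genes runs through short promoter elements called kB sites. Promoters (250 bases before to 50 after the start, RefSeq, GRCm38.p6) were matched for 27 of the 33 genes and searched on both strands for the 10-letter kB consensus, where matches could overlap. The consensus was found in 12 of the 27 promoters (44.4%), against 4.3% of 27025 promoters of the same length. Of the 9919 of these that belong to genes of the expression table, 4.8% held it. The list includes feedback genes that NF-kB switches on, so a high share can follow from how the genes were chosen. A match describes the letters in the window and not a bound site. The stretches below come from 6 inhibitor and subunit genes of the feedback loop whose levels are described next, each on the strand of its gene, with the bases of the consensus matches in capitals.
Nfkbia: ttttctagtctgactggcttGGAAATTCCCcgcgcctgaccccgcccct
Tnfaip3: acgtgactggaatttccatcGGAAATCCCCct
Nfkbie: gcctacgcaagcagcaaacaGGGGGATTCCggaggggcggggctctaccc
Tnip1: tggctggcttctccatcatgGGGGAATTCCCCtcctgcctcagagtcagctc
Nfkb2: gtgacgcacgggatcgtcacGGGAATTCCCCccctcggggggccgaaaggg
Rel: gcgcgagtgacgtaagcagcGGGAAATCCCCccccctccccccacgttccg

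These lie at chr12:55492648-55492696 on the minus strand for Nfkbia, chr10:19015411-19015442 on the minus strand for Tnfaip3 and chr17:45555574-45555623 on the plus strand for Nfkbie. Those of Tnip1 and Rel lie at chr11:54962967-54963018 and chr11:23771031-23771081, both on the minus strand, and that of Nfkb2 at chr19:46304678-46304728 on the plus strand. In Tnip1 the capitals hold 3 overlapping matches and in Nfkb2 and Rel 2 each. The promoters of Tnfaip3 and Nfkb2 each hold 1 further match, which is not in capitals here. Matches were also found in the promoters of Bcl3, Bcl10, Cyld, Ebi3, Tank and Traf3.

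The 5 subunits of NF-kB were all measured well above the counting limit, and in each the Chat+ and Chat- levels overlapped. Nfkb1, which encodes the p105 precursor of p50, had 327, 324, 285, 329 and 292 CPM in Chat+ replicates 1 to 5 and 326, 351, 319, 255 and 352 CPM in Chat- replicates 1 to 5. Rela, the p65 subunit that partners p50 in the canonical pathway, had 156, 161, 139, 141 and 136 CPM in Chat+ cells and 164, 168, 173, 105 and 147 CPM in Chat-. In both genes Chat- replicate 4 was the lowest of the 10 libraries, and the other 4 Chat- libraries lay within or above the Chat+ range. The fold differences were 0.98 for Nfkb1 (95% confidence interval 0.83 to 1.14) and 0.98 for Rela (0.80 to 1.20). They became 0.92 (0.82 to 1.04) and 0.90 (0.79 to 1.02) without Chat- replicate 4 (limma adjusted p = 0.844 and 0.763).

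Rel, the c-Rel subunit that mature B cells rely on after antigen stimulation, had 259, 269, 329, 292 and 311 CPM in Chat+ cells and 267, 296, 295, 437 and 279 CPM in Chat-. Here Chat- replicate 4 was the highest library, and without it the Chat- mean was 284 ± 14.1 CPM (SD, n = 4), beside 292 ± 28.8 CPM in Chat+ (SD, n = 5). The log2 fold change was -0.09 ± 0.14 (SE) with all libraries and 0.03 ± 0.09 without that one.

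The subunits of the non-canonical arm, which B cells use downstream of the BAFF receptor and CD40, gave a similar picture. Nfkb2, the precursor of p52, had 299, 328, 258, 303 and 206 CPM in Chat+ cells and 314, 346, 349, 193 and 316 CPM in Chat-. Relb, its partner, had 87.7, 101, 84.8, 83.8 and 66.9 CPM in Chat+ cells and 90.9, 113, 102, 69.2 and 84.3 CPM in Chat-. Each group held 1 low library for both genes, Chat+ replicate 5 and Chat- replicate 4. Without Chat- replicate 4 the log2 fold changes were -0.27 ± 0.12 for Nfkb2 and -0.20 ± 0.12 for Relb (SE; unadjusted p = 0.053 and 0.13, limma adjusted p = 0.690 and 0.810), against -0.11 ± 0.17 and -0.11 ± 0.14 with all 10 libraries. Without the other low library, Chat+ replicate 5, they were -0.006 for Nfkb2 and -0.02 for Relb, so the size of both values turned on which low library was kept.

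Divided by the length of the longest annotated principal transcript, a scale that allows levels of different genes to be compared, Nfkb2 stood at 88.8 ± 15.2 CPM per kb in Chat+ and 96.7 ± 20.4 in Chat-. Nfkb1 followed at 75.6 ± 5.11 and 77.9 ± 9.57 CPM per kb in Chat+ and Chat-, and Rela at 54.0 ± 4.04 and 55.7 ± 10.2. The lowest were Rel, at 39.1 ± 3.86 and 42.2 ± 9.31 CPM per kb, and Relb, at 38.4 ± 5.54 and 41.6 ± 7.57 (SD, n = 5 each). With all 10 libraries the order was the same in both groups, but the range of each gene overlapped that of the next in order. Leaving out Chat- replicate 4 lowered the Chat- mean of Rel from 314.7 to 284.1 CPM and raised that of Relb from 91.85 to 97.51 CPM. Levels per kb were not computed without that library, so whether Rel stays above Relb in Chat- is not given.

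**Figure D2:**
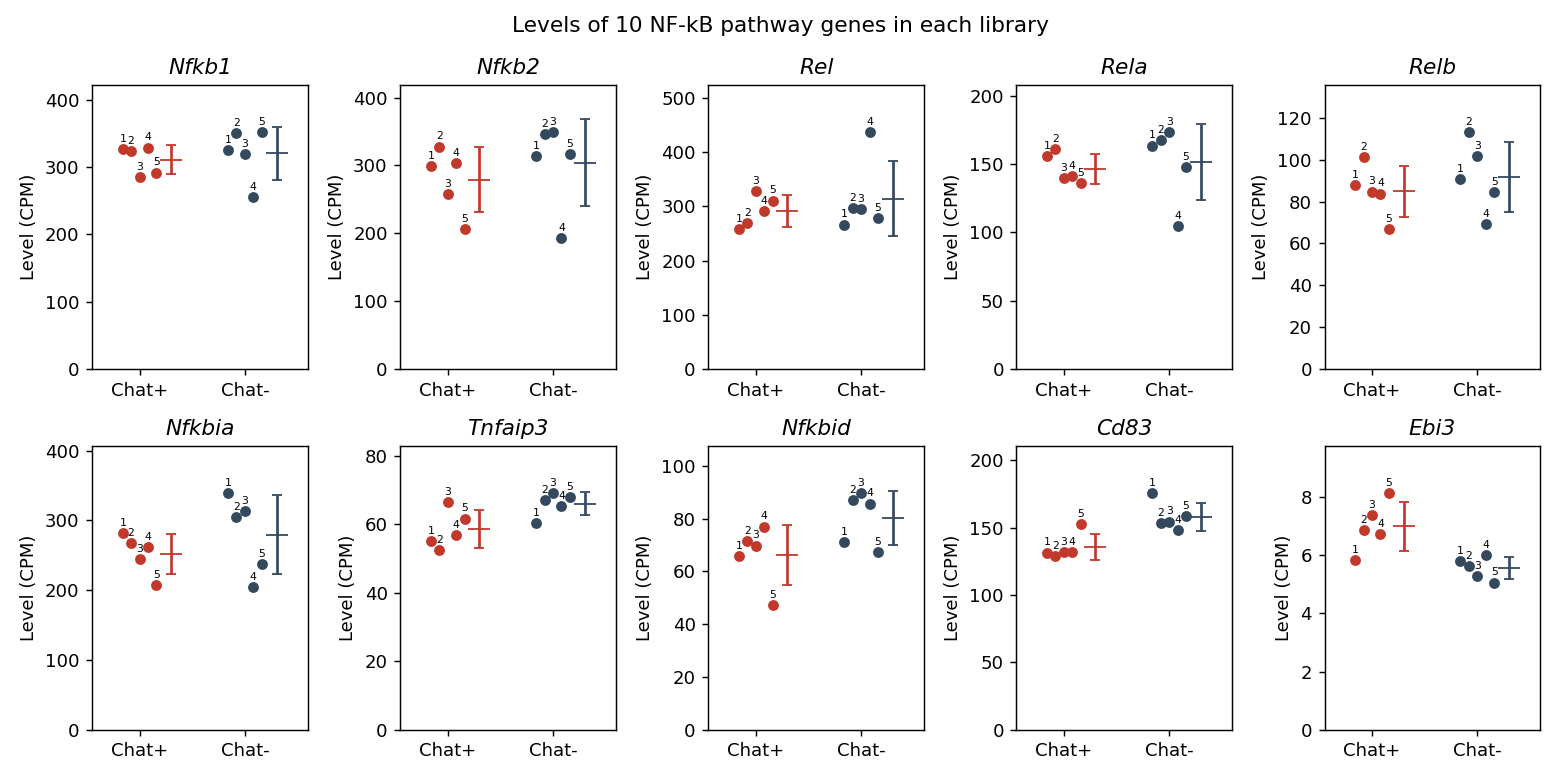
Levels in CPM of the 5 subunits, of the inhibitors Nfkbia, Tnfaip3 and Nfkbid and of Cd83 and Ebi3 in 5 Chat+ (red) and 5 Chat- (dark blue) libraries, numbered by replicate, with mean and SD beside the points. All 10 genes overlap between the groups; Chat- replicate 4 is the lowest point for Nfkb1, Nfkb2, Rela and Nfkbia and the highest for Rel, and Chat+ replicate 5 is the 1 Chat+ point of Cd83 inside the Chat- range.

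The IkB inhibitors are the core of the feedback loop. Nfkbia, which encodes IkBα and is the most rapidly induced of them, had 282, 267, 244, 261 and 207 CPM in Chat+ cells and 339, 305, 313, 204 and 237 CPM in Chat-. Chat- replicates 1 to 3 exceeded each Chat+ library and the other 2 lay within or below the Chat+ range, so the groups overlapped. The fold difference was 0.91 (95% confidence interval 0.73 to 1.14), and 0.85 without Chat- replicate 4 (0.71 to 1.02; limma adjusted p = 0.733). Nfkbib and Nfkbie, the genes of IkBβ and IkBε, averaged 25.3 ± 2.15 and 95.6 ± 13.4 CPM in Chat+ cells and 23.8 ± 5.15 and 101 ± 18.8 CPM in Chat- (SD, n = 5), with log2 fold changes of 0.11 and -0.06. Without Chat- replicate 4, where Nfkbib had 15.0 CPM, they were -0.04 and -0.16.

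The atypical IkB proteins act in the nucleus, where they bind p50 or p52 dimers on DNA. Nfkbid, which encodes IkBNS, a factor required for B-1 cell development, had 65.8, 71.5, 69.8, 77.0 and 47.1 CPM in Chat+ cells and 71.1, 87.0, 89.7, 85.8 and 67.3 CPM in Chat-. Chat- replicates 2, 3 and 4 exceeded each Chat+ library, and Chat+ replicate 5 was the lowest of all 10. The log2 fold change of -0.29 ± 0.14 (SE) did not pass (unadjusted p = 0.068, limma adjusted p = 0.999) and its interval ran from 0.66-fold to 1.02-fold. It was -0.17 without Chat+ replicate 5. Its unadjusted p was 0.031 with TMM scaling or median-of-ratios scaling and 0.018 with the replicate block, with adjusted p of at least 0.87 in those fits. Nfkbiz (IkBζ) averaged 35.3 ± 4.5 CPM in Chat+ cells and 35.7 ± 6.20 CPM in Chat-, and Bcl3 63.2 ± 11.1 and 67.1 ± 7.35 CPM (SD, n = 5).

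The kinase complex that releases NF-kB consists of IKKα (Chuk), IKKβ (Ikbkb) and the regulatory subunit NEMO (Ikbkg). Chuk had 83.0 to 116 CPM in Chat+ (median 105) and 76.9 to 111 CPM in Chat- (median 108), with a fold difference of 1.005 (95% confidence interval 0.83 to 1.21). Ikbkb averaged 339 ± 69.5 CPM in Chat+ cells and 346 ± 62.0 CPM in Chat-, and Ikbkg 82.5 ± 11.6 and 75.1 ± 6.11 CPM (SD, n = 5). Map3k14, which encodes NIK, the kinase of the non-canonical arm, averaged 80.7 ± 9.04 CPM in Chat+ cells and 79.9 ± 19.0 CPM in Chat-. Its log2 fold change was 0.05 ± 0.18 (SE) with all libraries and -0.13 ± 0.10 without Chat- replicate 4, which at 47.1 CPM was far below the 82.8 to 93.4 CPM of the other Chat- libraries.

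Malt1 and Bcl10 encode adaptors that link the B cell receptor to IKK. Malt1 averaged 307 ± 27.5 CPM in Chat+ cells and 278 ± 13.5 CPM in Chat- (SD, n = 5), a fold difference of 1.10 with a 95% confidence interval of 0.96 to 1.26. Bcl10 averaged 111 ± 15.9 and 105 ± 8.14 CPM in Chat+ cells and Chat- (log2 fold change 0.08 ± 0.11, SE). Malt1 was among the more tightly bounded genes, and neither passed the test.

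TRAF and cIAP proteins sit between TNF family receptors and the kinases, and Traf2, Traf3, Birc2 and Birc3 together hold NIK at a low level in unstimulated B cells. Birc3, which encodes cIAP2, had 304, 304, 350, 314 and 289 CPM in Chat+ cells and 330, 341, 357, 354 and 315 CPM in Chat-. Of its 5 Chat+ libraries 4 lay below every Chat- library and replicate 3 lay inside the Chat- range (fold difference 0.92, 95% confidence interval 0.81 to 1.04). Of the 31-base words of Birc3 transcripts, 11.3% also occur in transcripts of other genes, the largest share among the 33 genes, so some of its reads are of uncertain origin. Birc2 averaged 91.6 ± 9.16 CPM in Chat+ cells and 88.1 ± 10.4 CPM in Chat-, and Traf3 150 ± 10.7 and 155 ± 13.9 CPM (SD, n = 5).

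Traf2, an adaptor of TNF receptors and CD40, had 57.1 to 79.0 CPM in Chat+ cells and 84.8, 85.1, 87.7, 34.2 and 71.8 CPM in Chat-. Chat- replicates 1 to 3 exceeded each Chat+ library, while Chat- replicate 4 was below them all. Its log2 fold change of 0.03 ± 0.23 (SE) accordingly became -0.23 ± 0.11 without that library (unadjusted p = 0.072, limma adjusted p = 0.741). Traf6, the adaptor of Toll-like and IL-1 receptors, and Tank, a TRAF-binding regulator, ran the other way. In Chat- replicate 4 they had 98.8 and 166 CPM, against 54.1 to 60.6 and 78.3 to 92.2 CPM in the other Chat- libraries and 50.4 to 61.7 and 77.1 to 128 CPM in Chat+. The log2 fold changes of Traf6 and Tank were -0.19 ± 0.16 and -0.13 ± 0.21 (SE) with all libraries. They were -0.03 ± 0.09 and 0.06 ± 0.14 without Chat- replicate 4. Traf1 averaged 46.8 ± 10.7 CPM in Chat+ cells and 45.5 ± 8.22 CPM in Chat-, and Traf5 150 ± 20.4 and 146 ± 21.6 CPM (SD, n = 5).

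The enzymes and adaptors that edit ubiquitin chains form a second brake on the pathway. Tnfaip3, which encodes A20, the deubiquitinating brake of the pathway, had 55.2, 52.5, 66.4, 56.9 and 61.7 CPM in Chat+ cells and 60.4, 67.1, 69.1, 65.3 and 67.9 CPM in Chat-. The Chat+ values were mostly below the Chat- values, with Chat+ replicates 3 and 5 inside the Chat- range. The fold difference was 0.89 (95% confidence interval 0.77 to 1.02; unadjusted p = 0.093, limma adjusted p = 0.999). Tnip1, an A20-binding protein, averaged 71.6 ± 8.22 CPM in Chat+ cells and 81.0 ± 9.46 CPM in Chat- (SD, n = 5). Without Chat- replicate 4 its groups did not overlap, at 57.4 to 77.5 CPM in Chat+ cells and 78.2 to 91.4 CPM in Chat-, but it did not pass over all genes (log2 fold change -0.25 ± 0.10, SE, limma adjusted p = 0.637). With all libraries the value was -0.18 ± 0.12, and without Chat+ replicate 5, the lowest library, it was -0.10.

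Cyld, a deubiquitinase of TRAF and NEMO, averaged 181 ± 20.9 CPM in Chat+ cells and 176 ± 5.97 CPM in Chat-, a fold difference of 1.02 (95% confidence interval 0.89 to 1.18). Otulin, which removes linear ubiquitin chains, averaged 78.1 ± 12.7 CPM in Chat+ cells and 77.4 ± 27.2 CPM in Chat-, with Chat- replicate 4 at 31.4 CPM against 81.8 to 104 CPM in the other Chat- libraries. Tnip2, another A20-binding protein, was the most variable of the 33 genes in Chat+, at 10.7 to 33.6 CPM against 16.4 to 30.6 CPM in Chat- (fold difference 0.94, 95% confidence interval 0.59 to 1.51). Without Chat- replicate 4 the log2 fold change of Otulin was -0.19 ± 0.13 (SE), beside 0.10 ± 0.27 with all libraries, and its interval narrowed to 0.72-fold to 1.06-fold. For Tnip2 the interval reached beyond 1.5-fold with and without that library.

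Of the genes induced by NF-kB, Cd83 had the smallest p of all 33 in the main analysis. Cd83 encodes a surface protein of activated B cells and dendritic cells that stabilises MHC class II, and it lies on chromosome 13 at 43784775 to 43803132 on the plus strand of GRCm38. It had 131, 129, 132, 132 and 153 CPM in Chat+ cells and 176, 153, 155, 148 and 159 CPM in Chat-. The first 4 Chat+ libraries lay below every Chat- library, and Chat+ replicate 5 lay inside the Chat- range. The mean was 135 ± 9.80 CPM in Chat+ cells and 158 ± 10.6 CPM in Chat- (SD, n = 5), a fold difference of 0.86 (95% confidence interval 0.75 to 0.98; unadjusted p = 0.023, limma adjusted p = 0.999). Its unadjusted p was 0.066 when Chat- replicate 1, where it was highest, was left out and 0.052 when Chat+ replicate 2, where it was lowest, was left out. It was 0.0076 without Chat+ replicate 5, 0.0113 without Chat- replicate 4 and 0.00185 with library quality weights (limma adjusted p = 0.711, 0.467 and 0.125).

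Among markers listed for other cells that express Cd83, the 9 dendritic cell markers analysed of 11 listed summed to 1491 to 1645 CPM in Chat+ cells. In Chat- they summed to 1496 to 1696 CPM, and 0 of them passed. That list includes genes that B cells also express, such as Irf8 and Bst2, so its sum does not measure dendritic cells. The 12 monocyte and macrophage markers summed to 67.4 to 120 CPM in Chat+ cells and 46.8 to 237 CPM in Chat-, with the highest sum in Chat- replicate 4. Their part in the Cd83 difference was not tested. In sorted pools, fewer cells that express a gene and less RNA per cell cannot be told apart.

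Icam1, an adhesion ligand for the integrin LFA-1, averaged 50.1 ± 6.09 CPM in Chat+ cells and 54.1 ± 8.85 CPM in Chat- (SD, n = 5; fold difference 0.93, 95% confidence interval 0.76 to 1.15). Its fold difference was 0.88 (0.73 to 1.05) without Chat- replicate 4 (limma adjusted p = 0.817). Ebi3, a subunit of the cytokines IL-27 and IL-35, was the lowest in CPM and had the largest positive fold change of the 33 genes. It had 5.84, 6.85, 7.38, 6.73 and 8.14 CPM in Chat+ cells and 5.80, 5.64, 5.28, 5.99 and 5.06 CPM in Chat-. The highest Chat- library, replicate 4, lay above the lowest Chat+ library, replicate 1, and the other Chat+ libraries were above all Chat- libraries. The fold difference of 1.25 (95% confidence interval 0.91 to 1.71) did not pass (unadjusted p = 0.15, limma adjusted p = 0.999). For Ebi3 the unadjusted p was 0.018 in the limma fit without the mean-variance trend, with an adjusted p of 0.795.

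Single libraries set much of the spread among the 33 genes, and Chat- replicate 4 stood out across the table as well. It was the lowest of the 10 libraries for 12 of the 33 genes and the highest for 4. Over the 10147 genes with a mean of at least 5 CPM it was lowest for 35.8% and highest for 19.0%, so its extremes were not particular to the 33. Chat+ replicate 5 was lowest for 10 genes (17.2% of those 10147 genes) and highest for 3 (13.5%). Chat- replicate 3 was highest for 10 of the 33 genes (8.1% of those 10147 genes) and lowest for 0 (4.0%). The median coefficient of variation of the 33 genes was 12.2% in Chat+ and 16.4% in Chat-, and 7.13% in Chat- without replicate 4. No value was computed for Chat+ without replicate 5, so the 7.13% and the 12.2% cannot be compared. The mean log2 level over the 33 genes was 6.55 ± 0.10 in Chat+ (6.37 to 6.62) and 6.59 ± 0.13 in Chat- (6.40 to 6.70; SD, n = 5), and the lowest library of each group was again Chat+ replicate 5 and Chat- replicate 4.

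**Figure D3:**
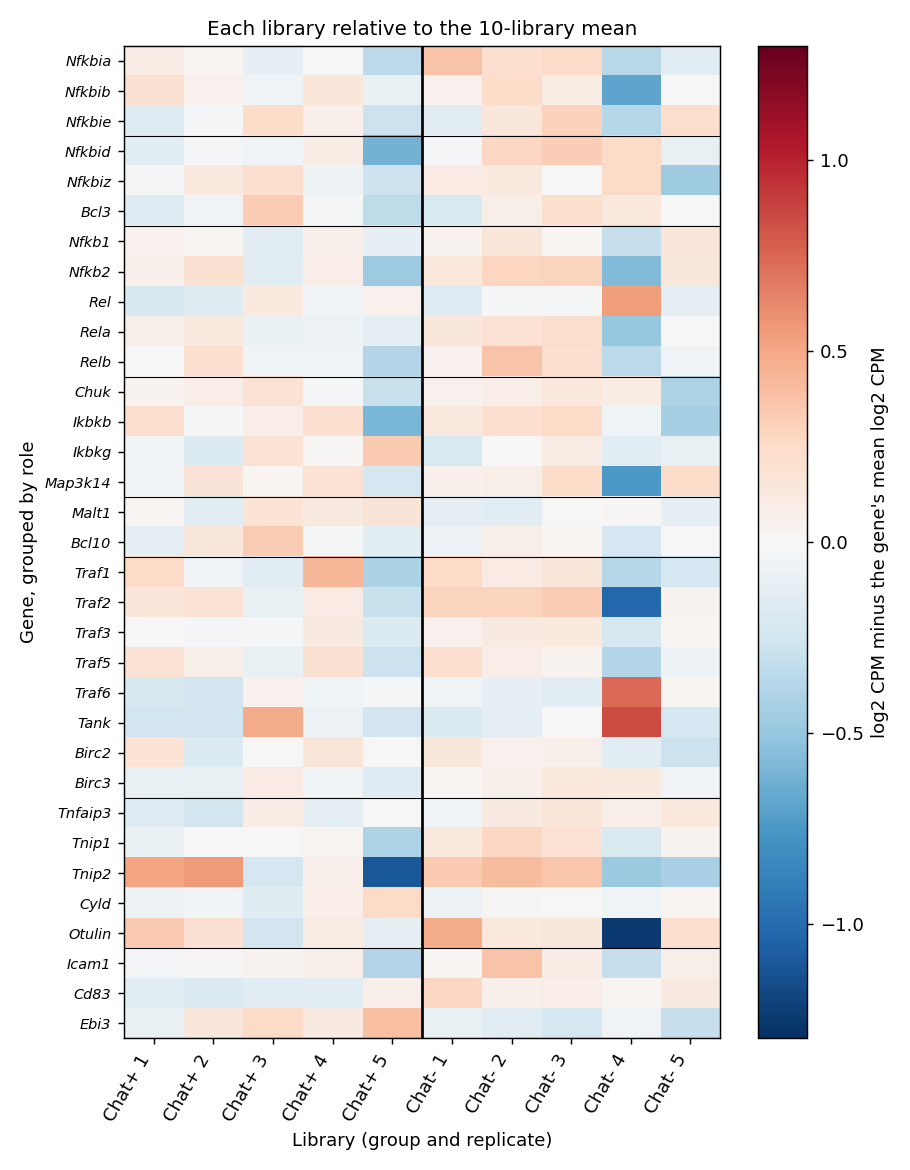
Log2 CPM of each of the 33 genes in each library minus the mean of that gene over the 10 libraries, with Chat+ libraries left of the black line and Chat- libraries right of it, and genes grouped by role. The Chat- replicate 4 column holds strong values in both directions (low for Traf2, Otulin and Map3k14, high for Tank, Traf6 and Rel), and Chat+ replicate 5 is the lowest library for 10 genes.

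Leaving out Chat- replicate 4 narrowed the spread and moved the median down without giving any call. Then 23 of the 33 genes had a log2 fold change below 0, where 50.4% of all genes did, and their median was -0.10 beside -0.0017 over all genes. Of the 33 genes, 0 passed (lowest limma adjusted p = 0.467, where 0.0415% of all genes passed), and Cd83 and Tnip1 had an unadjusted p under 0.05, where 7.32% of all genes did. The groups did not overlap for Cd83, Tnip1 and Ebi3, 3 of 33 genes (9.09%) where 3.29% of all genes showed none. Their edges lay close together. The highest Chat+ and lowest remaining Chat- values were 152.8 and 153.2 CPM for Cd83 and 77.54 and 78.19 CPM for Tnip1. For Ebi3 the lowest Chat+ value was 5.84 CPM and the highest remaining Chat- value 5.798 CPM. By role, all 3 IkB inhibitors and 4 of the 5 subunits had values below 0 in that fit, and both Malt1 and Bcl10 had values above 0.

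Genes on either side of these components in the pathway were taken from 4 further lists, and 0 of their members passed the adjusted threshold. Of 12 upstream receptor genes 10 were measured, 4 below 0 and 6 above, with a median log2 fold change of 0.01. The BAFF receptor gene Tnfrsf13c averaged 336 ± 21.2 CPM in Chat+ cells and 353 ± 13.7 CPM in Chat-, and Cd79a, a signalling chain of the B cell receptor, 2029 ± 131 and 2188 ± 85.6 CPM. Tlr7, a receptor for single-stranded RNA, ran from 30.5 to 53.1 CPM in Chat+ cells and from 24.4 to 57.5 CPM in Chat-, with its highest value in Chat- replicate 4.

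All 23 upstream adaptor and kinase genes analysed were measured, 10 below 0 and 13 above, with a median of 0.02. Casp8, a protease of death receptor signalling, averaged 95.3 ± 13.6 CPM in Chat+ cells and 78.6 ± 10.1 CPM in Chat- (unadjusted p = 0.043, limma adjusted p = 0.999). Ikbke, an IKK-related kinase, averaged 23.3 ± 2.82 and 18.3 ± 5.10 CPM, and Fadd, an adaptor of death receptors, 19.8 ± 0.97 and 23.3 ± 3.52 CPM.

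Of 29 other NF-kB target genes 23 were measured, 11 below 0 and 12 above, and their log2 fold changes ran from -0.59 to 1.68 (median 0.0038). Marcksl1, an actin-binding protein of the MARCKS family, averaged 45.5 ± 7.17 CPM in Chat+ cells and 61.4 ± 8.03 CPM in Chat- (log2 fold change -0.44 ± 0.14, SE, limma adjusted p = 0.734). Myc, a driver of cell growth, averaged 62.0 ± 19.4 and 40.8 ± 8.90 CPM (log2 fold change 0.58 ± 0.20, adjusted p = 0.873), with its highest value in Chat+ replicate 5. The survival gene Bcl2l1 did not overlap between groups, at 8.93 to 10.97 CPM in Chat+ cells and 5.06 to 8.72 CPM in Chat- (adjusted p = 0.999). It was the 1 gene of the 23 without overlap, where 1.43% of all genes showed none. Target genes of the list thus had values in both directions, and 4 of the 23 had an unadjusted p under 0.05, where 4.51% of all genes did.

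Immediate early genes, which respond within minutes to antigen receptor signals and also to cell handling, were measured for 19 of 21 listed, 11 below 0 and 8 above. Of the 19, 3 had an unadjusted p under 0.05, where 4.51% of all genes did. The 95% confidence interval lay within 1.5-fold for 4 of them (21.1%), where it did for 44.1% of all genes. Egr1 and Egr3, zinc finger factors induced by antigen receptor signals, averaged 21.5 ± 5.51 and 43.2 ± 10.01 CPM in Chat+ cells and 30.3 ± 1.54 and 61.1 ± 8.52 CPM in Chat- (limma adjusted p = 0.825 and 0.730). Egr1 did not overlap between groups, at 14.3 to 27.7 CPM in Chat+ cells and 28.8 to 32.5 CPM in Chat-, the 1 gene of the 19 to do so. Over all genes, 1.43% showed no overlap. Fos went the other way, at 7.83 ± 2.91 CPM in Chat+ cells and 4.71 ± 2.0 CPM in Chat- (adjusted p = 0.999). Such genes thus did not share 1 direction.

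**Figure D4:**
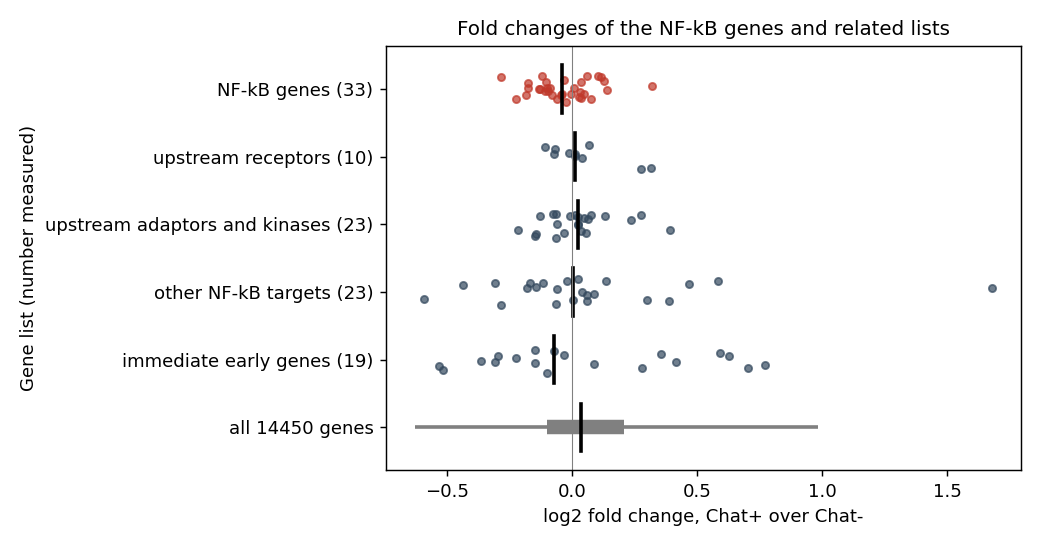
Log2 fold changes of Chat+ over Chat- for each measured gene of the 33 NF-kB genes (red) and of the 4 related lists (dark blue), with black lines at medians; the grey bars give the 5th to 95th and 25th to 75th percentiles of all 14450 genes. The 33 genes lie between -0.29 and 0.32, while the other target genes and the immediate early genes reach further in both directions.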

How the data were processed

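Per the submitters' processing notes, the tools were cutadapt 2.6 and Salmon 0.14.2 and the build was GRCm38.p6. Libraries were made with a strand-specific kit, per the labels' protocols; which transcript annotation and strand setting Salmon used is not given in the sources. The deposited values are log2 CPM: all libraries share a lowest value of -3.1228, an offset of 0.1148 CPM, and sum to 1000000 CPM without it. Taken as multiples of 1 read, 38.6% to 52.3% of values under 3 CPM came out whole (tolerance 0.01 reads), too few for a count model. Depth estimates come from the same step.

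The deposited log2 values were fitted with limma 3.58.1 in R 4.3.3 (mean-variance trend, group as the only term, two-sided, Benjamini-Hochberg adjustment over 14450 genes). Fold changes refer to log2(CPM + offset). TMM factors were computed by formula; tables and figures used Python 3.11.15. Alternatives covered scaling, pseudocount, filters, weights, voom, the replicate number and leaving out libraries.

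Symbols were matched for 14374 identifiers, and coordinates and transcript lengths come from GENCODE M21 (GRCm38). Members were given by a rule that uses no measured value, but members and gene lists were set with earlier results of these data known. All 33 members are named. Values for every library were to be given for the 5 subunits, Nfkbia, Tnfaip3, Cd83, members with an unadjusted p under 0.05 or no overlap, and the 3 members with the largest changes. Those of Birc3 and Traf2, and all single-library values of other members, were chosen after they were seen. From each related list the 3 genes with the smallest p are named. One gene of the upstream adaptor list is not reported here. On the opposite strand Nfkbib overlaps Sirt2, Nfkb2 overlaps Psd, Ikbkg overlaps G6pdx and Otulin overlaps Ank, so their reads are told apart only if strand was used. The other marker lists are given in the closing part.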

Additional observations from a re-analysis of the deposited data

Results flagged for a closer look

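Among 66 sets of values (33 genes in 2 groups of 5 libraries), 13 held a library set apart from the others. Its gap to the nearest neighbour was more than 0.71 of the range on the log2 scale. For a single set chance gives about 1 in 20, but the sets come from the same 10 libraries and are not independent. The share of all genes flagged under this rule was not computed, so the 13 are not a result about the 33 genes. Of the 13, 8 came from Chat- replicate 4. That library was lowest for Nfkbib (15.0 CPM, against 24.4 to 28.5 CPM in the other Chat- libraries), Nfkb2 (193 CPM), Map3k14 (47.1 CPM), Traf2 (34.2 CPM) and Otulin (31.4 CPM). It was highest for Rel (437 CPM), Traf6 (98.8 CPM) and Tank (166 CPM). Its mitochondrial share of 11.87% lay as far apart, against 2.41% to 3.68% in the other Chat- libraries. Chat+ replicate 5 was lowest for Tnip1 (57.4 CPM) and Icam1 (39.5 CPM) and highest for Cd83 (153 CPM). Chat- replicate 5 was lowest for Chuk (76.9 CPM), and Chat+ replicate 3 was highest for Tank (128 CPM).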

How the results depend on the processing

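Over 22 alternatives, 0 of the 33 genes passed in any fit (lowest adjusted p = 0.125, Cd83 with library quality weights), and their median log2 fold change stayed between -0.14 and 0.01. Of the 33 genes, 14 kept their sign under every alternative and 19 did not; the cause was not tested. Over all genes, 1 passed in the main analysis, 3 without the mean-variance trend, 105 with library quality weights, 0 with limma-voom and 1 to 6 without 1 library (2 without Chat- replicate 1 or 3, 6 without Chat+ replicate 5 or Chat- replicate 4). The number was 17 without the 3 libraries with the most genes at the lowest value (Chat+ replicates 3 and 5, Chat- replicate 4), an alternative chosen after seeing the data. With the replicate block it was 6, and 82 with that block and Chat- replicate 4 left out. The labels do not say that a number marks a shared animal or batch, and same-numbered deviations correlated at -0.20 to 0.23, so the libraries were not treated as paired. As a hint from the data, 3 of 5 Chat+ libraries correlated best with their own number, and whether the numbers pair the libraries was not settled.

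Log2 fold changes that changed sign were as follows. With quality weights they were -0.0065 for Nfkbib, -0.028 for Chuk, -0.055 for Map3k14, -0.013 for Bcl10, -0.17 for Traf2 and -0.056 for Otulin. With the replicate block and Chat- replicate 4 left out they were -0.068 for Nfkbib, 0.072 for Nfkbiz, 0.033 for Rel, -0.17 for Map3k14, -0.16 for Traf1, -0.25 for Traf2, -0.098 for Traf5, 0.064 for Tank, -0.0027 for Birc2 and -0.20 for Otulin. TMM scaling gave -0.031 for Chuk, -0.0045 for Traf1, -0.011 for Traf2, -0.0012 for Traf5 and -0.0035 for Cyld. Median-of-ratios scaling gave -0.036 for Chuk, -0.010 for Traf1, -0.016 for Traf2, -0.0067 for Traf5 and -0.0089 for Cyld. Limma-voom gave 0.012 for Nfkbiz. Without the 3 libraries the values were 0.068 for Nfkbiz, 0.098 for Ikbkb, -0.020 for Ikbkg, -0.052 for Map3k14, -0.0096 for Bcl10, -0.089 for Traf2, 0.20 for Tnip2, -0.00039 for Cyld and -0.036 for Otulin.

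Without 1 library at a time, the range was -0.092 to 0.080 for Chuk, -0.070 to 0.14 for Traf1, -0.23 to 0.11 for Traf2, -0.054 to 0.11 for Traf5, -0.12 to 0.059 for Nfkbiz, -0.15 to 0.10 for Ikbkb and -0.23 to 0.18 for Tnip2. It was -0.028 to 0.077 for Cyld, -0.15 to 0.028 for Rela, -0.16 to 0.0054 for Nfkbie, -0.043 to 0.19 for Nfkbib, -0.14 to 0.034 for Rel and -0.13 to 0.12 for Map3k14. It was -0.27 to 0.062 for Tank, -0.19 to 0.24 for Otulin, -0.12 to 0.00093 for Nfkb1 and -0.0049 to 0.11 for Birc2.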

Other observations

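Markers of other cells, as sums of CPM over each list, overlapped between the groups for every list run. Stromal and endothelial markers (12 of 14 analysed) summed to 288 to 413 CPM in Chat+ cells and 301 to 555 CPM in Chat-, with the highest sum in Chat- replicate 4. Neutrophil markers (11 of 11) summed to 28.1 to 145 CPM in Chat+ cells and 52.3 to 122 CPM in Chat-, and erythroid markers (8 of 8) to 529 to 884 and 451 to 1083 CPM. Plasma cell markers (7 of 8) summed to 296 to 534 CPM in Chat+ cells and 274 to 339 CPM in Chat-. For T and NK cells 1 marker of 11, Cd4, was analysed, at 0.0344 to 1.27 CPM in Chat+ cells and 0 to 0.845 CPM in Chat-.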
